A study of Mus musculus with 10 samples.

Results

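Late risers are genes whose nascent transcription was little above its starting level, or below it, at 1 hour of SOX2 degradation and stood well above it at 6 hours. They were chosen by measured values, and 70 of 9806 eligible genes met the rule, in a deposited set of 40779 transcribed units (TUs, regions of 1 strand that are read through without a break). Eligible genes were TUs associated with a single gene that held a mean of at least 50 fragments over the 10 libraries. Predicted genes, zinc finger (Zfp), solute carrier, collagen, laminin, integrin and cadherin genes and a few single genes were not considered. With CPM as fragments scaled to a library total of 1e6 and 0.1 CPM added, the log2 ratio of the mean at 1 h to the untreated mean had to be under 0.4, and that at 6 h at least 0.9. The untreated, 1 h and 6 h libraries thus fixed what a late riser is, and their values are given below as a description, without a test. The rule set no limit at 0.5 h, where the log2 ratio to the untreated mean ran from -0.62 (Fam160a1) to 0.62 (Sstr5).

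All libraries came from E14 mouse embryonic stem cells grown in serum-free medium with LIF and inhibitors of MEK and GSK3, in which SOX2 carries the FKBP degron that lets dTAG-13 direct the protein to the proteasome. The 5 groups, each of 2 replicates, were a DMSO control (NT) and cells treated with 500 nM dTAG-13 for 0.5, 1, 2 or 6 h, written below as hours post depletion (hpd). All groups carry the tagged SOX2, so the NT group is no wild type, and nothing states that the replicates were separate cultures. P-values therefore measure the spread between these libraries, which may be technical. In TT_chem-seq, cells are fed 4-thiouridine (2 mM for 10 min here) and the labelled RNA is fragmented, captured and sequenced, so that a count reflects ongoing transcription and not the store of mature RNA. Libraries held 11131490 to 25854106 fragments. Of 7 stem cell genes read beside Sox2, all were transcribed in every library and 6 stood lower at 6 hpd than in NT with no overlap, Pou5f1 at 93.6 to 109 against 156 to 175 CPM, Nanog at 291 to 301 against 416 to 435 CPM, Esrrb at 799 to 811 against 1179 to 1291 CPM, Klf4 at 50.7 to 54.6 against 105 to 126 CPM, Dppa5a at 18.8 to 28.4 against 33.98 to 40.9 CPM and Zfp42 at 869.8 to 955 against 963 to 1137 CPM. Tfcp2l1 overlapped, at 927 to 999 against 959 to 1072 CPM. With 2 libraries a group such separation is frequent, and 32.9% of eligible genes had both 6 hpd libraries above both NT libraries. The share of genes below NT was not counted, so nothing is read from the count of 6. The part of the lower levels in the late risers was not tested. The Sox2 gene itself gave 222 to 298 CPM, which is no check of the depletion because the degron acts on the protein.

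SOX2 is a transcription factor that, together with OCT4, opens enhancers of the pluripotency network and helps to hold embryonic stem cells in the naive state. When such a factor is removed, genes that it drives directly can respond within minutes, whereas genes further down a regulatory chain respond after intermediate proteins have changed. Loss of SOX2 from these cells is known to let them drift towards a trophectoderm-like state, in which FGF receptor signalling is prominent.

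The steepest late risers encode a receptor tyrosine kinase (Fgfr2), a zinc finger oncoprotein (Mecom), a muscle ubiquitin ligase (Trim54) and an ankyrin repeat protein (Ankrd44). Over the 70 genes, the median log2 ratio to NT went from 0.08 at 0.5 hpd to 0.19 at 1 hpd, 0.45 at 2 hpd and 1.099 at 6 hpd, while over all eligible genes these medians were -0.01, -0.03, -0.04 and 0.0036. All 4 ratios share the NT libraries, and those at 1 and 6 hpd were fixed by the rule. In each of the 70 genes both 6 hpd libraries lay above both NT libraries, as did those of 32.9% of eligible genes. In 65 of the 70, both 6 hpd libraries lay above all 8 other libraries, as in 11.98% of eligible genes and in 46 of 84 genes that rose early and stayed high (described below). The rule used the 6 hpd libraries, so nothing is read from either count. The exceptions were Rarb, Phf19, Sstr5, Des and Rhob.

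**Figure D1:**
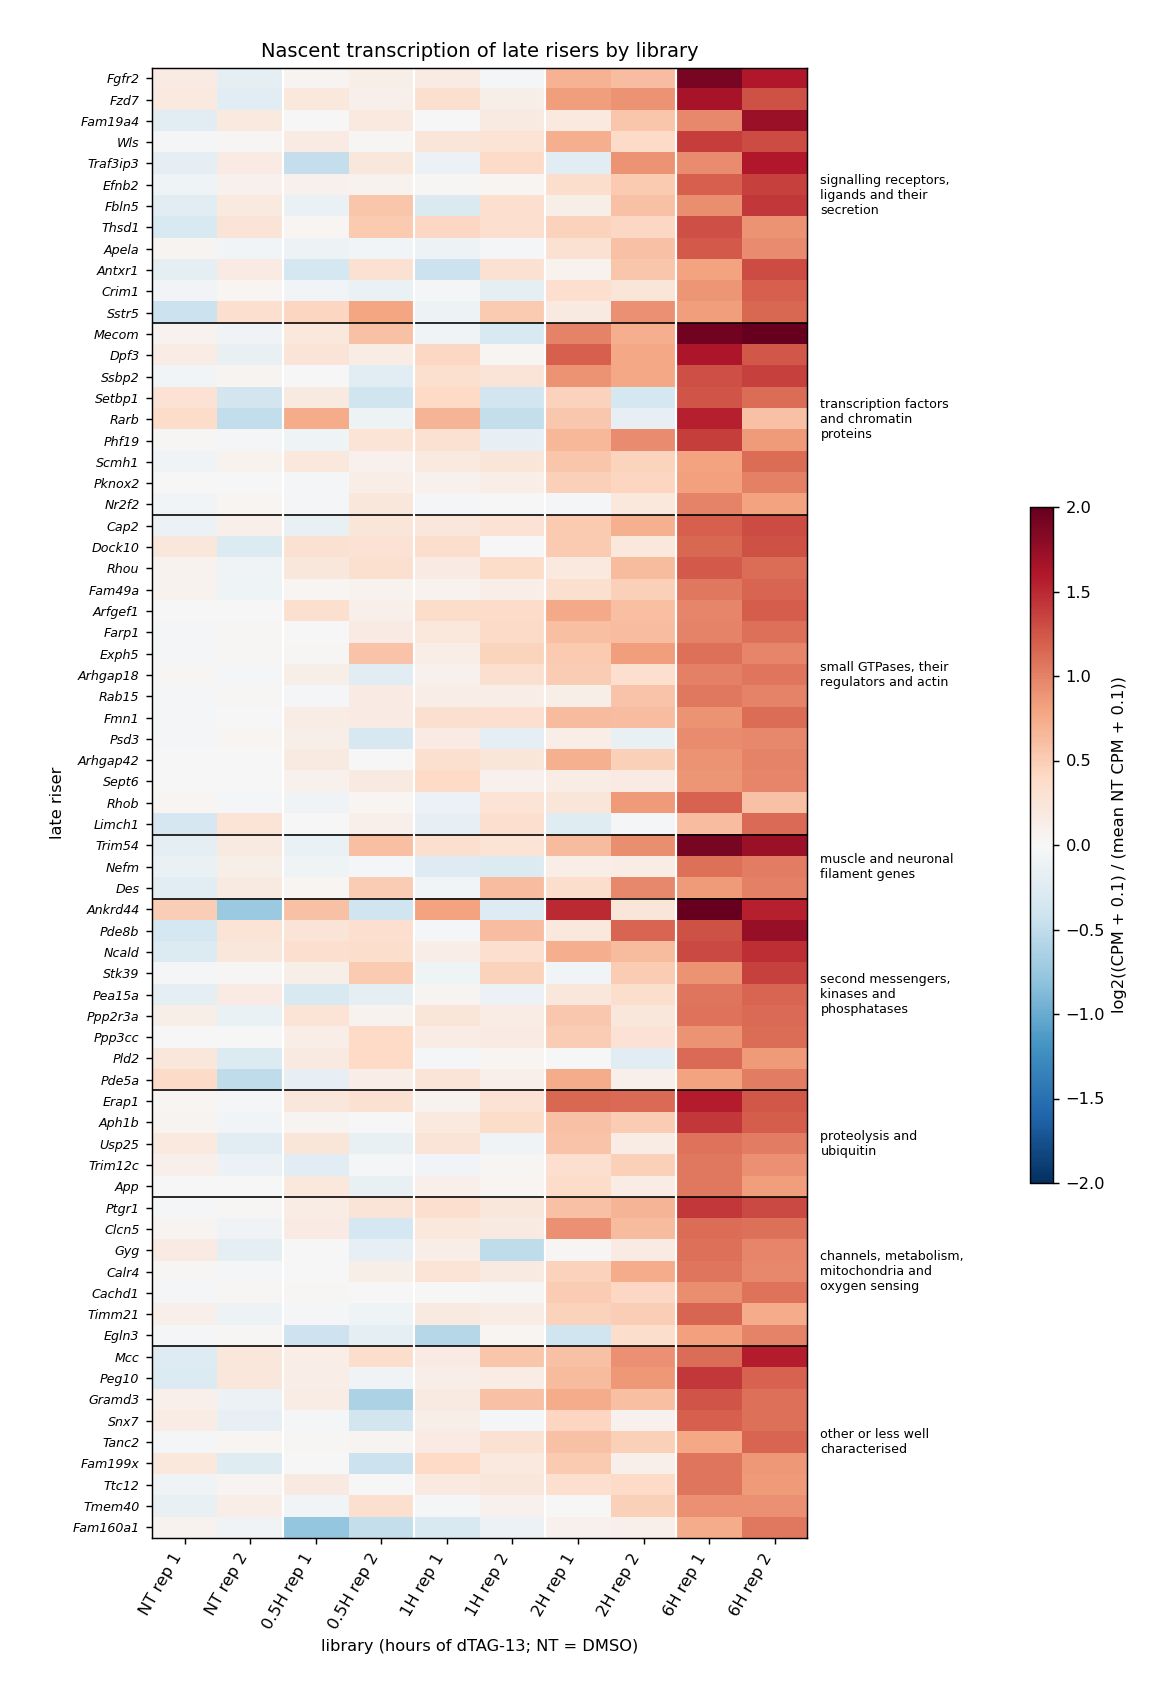
Nascent transcription of 69 of the 70 late risers in each of the 10 libraries, as log2 of CPM + 0.1 over the mean NT CPM + 0.1 (colour, which ends at -2 and 2), grouped by the role of the gene. The 2 columns at 6 hpd hold the highest values for every gene drawn except Rarb, Phf19, Sstr5, Des and Rhob, and the 2 columns at 2 hpd are intermediate for most.

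The rule put no threshold on the change from 0.5 to 2 hpd, and this interval was tested to ask whether the genes had begun to move before 6 hpd. The count minimum was a mean over all 10 libraries, these 4 included, so weakly counted genes could pass through their later libraries. Of the 70 late risers, 21 rose between 0.5 and 2 hpd and 0 fell (edgeR quasi-likelihood test over all 28459 tested TUs, Benjamini-Hochberg adjusted p under 0.05). At an unadjusted p under 0.05 the number lower was also 0, and DESeq2 called 22 higher and 0 lower. With a block for the replicate number, which was not taken to pair the samples, 36 were called higher and 0 lower. Among all tested TUs 0.759% were called higher and 1.75% lower, and among all eligible genes 1.59% were called higher. The 216 TUs behind the 0.759% became 507 without replicate 2 of 2 hpd and 65 without replicate 1 of 2 hpd. The median log2 fold change of the late risers was 0.53 against 0.06 for the eligible genes, and 67 of 70 were above 0 (61.5% of eligible genes). With a count minimum of 100 the rule chose 56 genes, with 21 called higher and a median of 0.51. With a minimum of 20 it chose 90 genes, with 21 called higher and a median of 0.53. Both 2 hpd libraries lay above both 0.5 hpd libraries in 42 of the 70, against 18.8% of eligible genes. At an unadjusted p under 0.05, 42 late risers differed, as did 18.3% of eligible genes. The number of calls rested on single libraries: it was 4 without replicate 1 of 2 hpd, 4 without replicate 2 of 0.5 hpd and 8 without replicate 1 of 0.5 hpd, and 4 when only the 4 libraries compared were fitted. The log2 fold change of each of the 21 stayed above 0 in all 10 fits that left out a library, of which those without a 0.5 or 2 hpd library had a single library in that group, taken to vary as the other groups did. Ssbp2 and Farp1 were called in all 10, and 15 of the 21 in at least 7. The others were called in fewer, Calr4 in 6, Pknox2 in 5, Arhgap42 and Arfgef1 in 4 each and Ptgr1 and Fam49a in 2 each.

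**Figure D2:**
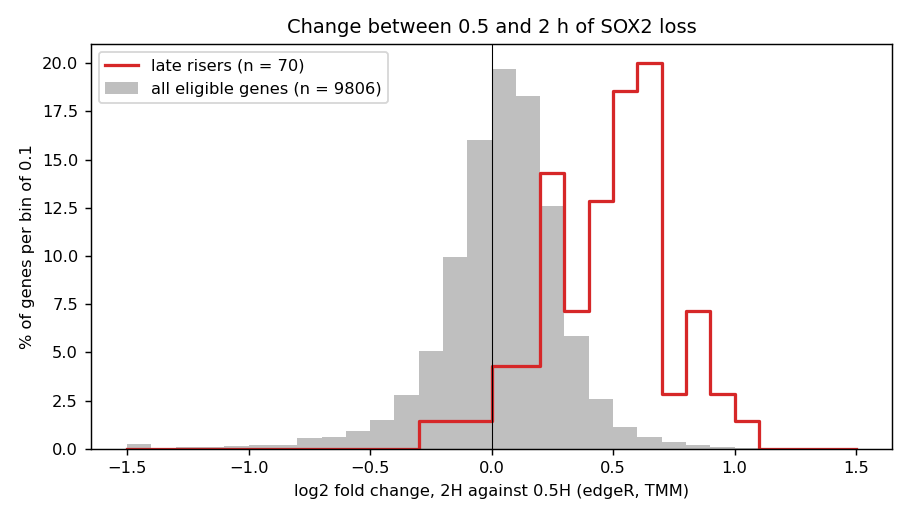
Distribution of the edgeR log2 fold change of 2 hpd against 0.5 hpd in bins of 0.1, as the percentage of genes per bin, for the 70 late risers (red line) and all 9806 eligible genes (grey bars, which include the late risers; values beyond 1.5 are drawn in the end bins). The late risers centre on 0.53 and the eligible genes on 0.06.

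The 84 eligible genes with the same rise at 6 hpd but a log2 ratio of 0.4 or more already at 1 hpd, termed early lasting risers here, make a natural contrast. Their medians went from 0.49 at 0.5 hpd to 0.75 at 1 hpd, 0.94 at 2 hpd and 1.21 at 6 hpd. Between 0.5 and 2 hpd, 26 of the 84 were called higher and 0 lower, with a median log2 fold change of 0.51. The medians of the early and the late genes in this interval were thus 0.51 and 0.53, and a difference between the groups was not tested. The 2 groups were cut at one threshold on a continuous scale. Just inside it at 1 hpd were Gramd3 (log2 ratio 0.398) and Thsd1 (0.376), and just outside were Arrb1 (0.4003) and Plet1 (0.402). At the 6 hpd threshold Limch1 (0.9021) and Egln3 (0.9021) were just inside and Strip2 (0.8995) and Dusp9 (0.894) just outside.

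The genes are taken here by role. The roles were assigned by hand to genes already chosen, so the size of a group is no measure of a theme. Wls, Apela, Pknox2, Nr2f2, Peg10, App, Aph1b and Des, and genes named only as part of a count, were picked after their values had been seen, and the other genes by a fixed rule. Among the 12 late risers that act as signalling receptors or ligands or in their secretion, 3 rose between 0.5 and 2 hpd (Fgfr2, Fzd7 and Apela) and 0 fell. All 12 log2 fold changes were positive, with a median of 0.45. Fgfr2, the receptor tyrosine kinase through which FGF4 sustains trophoblast stem cells (chr7:130159651-130266201, minus strand, XM_011241673.2), gave 12.8 and 10.1 CPM untreated, 11.8 and 12.4 after 0.5 h, 12.8 and 11.2 after 1 h, 18.5 and 17.7 after 2 h and 42.7 and 34.9 after 6 h. Its first 6 libraries overlapped in level, both 2 hpd libraries lay above them and both 6 hpd libraries lay higher again. At 2 against 0.5 hpd it rose (log2 fold change 0.67 ± 0.15 SE, edgeR adjusted p = 0.0301), a call that was lost in 3 of the 10 fits without a library. Fzd7, a Wnt receptor (chr1:59482115-59497702, plus strand, NM_008057.3), gave 20.6 and 15.2 CPM untreated, 20.8 and 19.1 after 0.5 h, 22.3 and 19.5 after 1 h, 32.1 and 33.7 after 2 h and 56.1 and 43.6 after 6 h. It too rose by 2 hpd (log2 fold change 0.79 ± 0.15 SE, edgeR adjusted p = 0.0118). Per kb of TU, its NT level of 1.15 CPM was among the highest of the late risers.

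Wls, which carries Wnt proteins to the cell surface, gave 12.1 and 12.5 CPM untreated, 13.7 and 12.6 after 0.5 h, 14.6 and 14.97 after 1 h, 20.4 and 16.1 after 2 h and 32.3 and 30.6 after 6 h. The 2 hpd libraries stood above all earlier ones, but the change from 0.5 hpd did not pass the test (log2 fold change 0.56 ± 0.15 SE, edgeR adjusted p = 0.0782). Apela, which encodes a secreted peptide that signals through the apelin receptor, gave 19.5 and 17.9 CPM untreated, 17.4 and 17.97 after 0.5 h, 17.4 and 18.3 after 1 h, 23.01 and 28.1 after 2 h and 44.1 and 36.2 after 6 h. No library up to 1 hpd was above 19.5 CPM, and Apela rose at 2 hpd (log2 fold change 0.61 ± 0.12 SE, edgeR adjusted p = 0.0148). Efnb2, the membrane-bound ligand of Eph receptors, gave 15.5 and 17.5 CPM untreated, 17.6 and 17.3 after 0.5 h, 16.7 and 17.1 after 1 h, 21.2 and 23.8 after 2 h and 38.2 and 42.8 after 6 h. Its groups at 0.5 and 2 hpd did not overlap, yet the test was not passed (log2 fold change 0.44 ± 0.12 SE, edgeR adjusted p = 0.0749). Crim1, which binds BMPs and is listed among targets of YAP and TEAD, had 16.9 and 18.1 CPM untreated, 16.9 and 15.9 after 0.5 h, 17.3 and 15.3 after 1 h, 22.1 and 20.7 after 2 h and 32.5 and 40.03 after 6 h, and did not pass either (log2 fold change 0.47 ± 0.15 SE, edgeR adjusted p = 0.129). Fam19a4, a secreted chemokine-like protein, gave 20.1 and 26.7 CPM untreated, 23.4 and 26.9 after 0.5 h, 23.2 and 26.5 after 1 h, 26.7 and 34.4 after 2 h and 45.7 and 77.4 after 6 h, and its 2 libraries at 6 hpd were as far apart as 45.7 and 77.4 CPM.

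Of the 10 transcription factors and chromatin proteins, 4 rose between 0.5 and 2 hpd, Ssbp2, Dpf3 and Pknox2 among them, and 0 fell. Ssbp2, a partner of LIM-domain-binding proteins in enhancer complexes (chr13:91461949-91709496, plus strand, NM_024186.5), had the smallest p of the late risers in this interval. It gave 11.997 and 12.9 CPM untreated, 12.6 and 10.8 after 0.5 h, 15.6 and 14.9 after 1 h, 23.3 and 21.4 after 2 h and 30.5 and 32.4 after 6 h. The NT and 0.5 hpd libraries overlapped, and both libraries of every later time lay above all 4 of them. The rise to 2 hpd was log2 fold change 1.00 ± 0.14 SE, edgeR adjusted p = 0.00125. Dpf3, a subunit of the BAF chromatin remodelling complex, gave 22.6 and 18.4 CPM untreated, 24.5 and 22.6 after 0.5 h, 27.4 and 21.01 after 1 h, 46.8 and 34.9 after 2 h and 63.04 and 48.6 after 6 h. Its lowest 2 hpd library exceeded every earlier one (log2 fold change 0.88 ± 0.19 SE, edgeR adjusted p = 0.0207).

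Pknox2, a homeodomain transcription factor, gave 106 and 107 CPM untreated, 104 and 117 after 0.5 h, 113 and 117 after 1 h, 148 and 143 after 2 h and 189 and 213 after 6 h. Its 6 libraries up to 1 hpd lay between 104 and 117 CPM, and it rose at 2 hpd (log2 fold change 0.48 ± 0.11 SE, edgeR adjusted p = 0.0276), a call kept in 5 of the 10 fits without a library.

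Mecom, which encodes the EVI1 zinc finger proteins, was weakly transcribed, with 2.36 and 2.15 CPM untreated, 2.63 and 3.41 after 0.5 h, 2.13 and 1.81 after 1 h, 4.56 and 3.81 after 2 h and 8.896 and 9.48 after 6 h. From these low counts (a mean of 69.4 fragments per library) it reached the second largest ratio of the set, a log2 ratio of 1.98 at 6 hpd, and the step from 0.5 to 2 hpd did not pass (log2 fold change 0.60 ± 0.22 SE, edgeR adjusted p = 0.227). The 2 nuclear receptors followed another course. Nr2f2 (COUP-TFII, an orphan receptor) had 16.9 and 18.1 CPM untreated, 17.3 and 20.6 after 0.5 h, 17.2 and 17.7 after 1 h, 17.03 and 20.3 after 2 h and 35.1 and 30.8 after 6 h. Its 8 libraries up to 2 hpd all lay between 16.9 and 20.6 CPM, and 2 against 0.5 hpd gave log2 fold change 0.07 ± 0.12 SE, edgeR adjusted p = 0.84998. Rarb, the retinoic acid receptor beta and itself a known target of retinoic acid, gave 22.3 and 12.2 CPM untreated, 29.01 and 15.99 after 0.5 h, 27.6 and 12.3 after 1 h, 24.9 and 15.3 after 2 h and 50.8 and 25.8 after 6 h. Replicate 1 was above replicate 2 in every group, so that the lower 6 hpd library did not clear the highest earlier ones, and at 2 against 0.5 hpd the value was log2 fold change -0.10 ± 0.40 SE, edgeR adjusted p = 0.949, with leave-one-out values from -0.60 to 0.48. On the opposite strand, Top2b overlapped the Rarb TU over 21.3 kb, with a log2 ratio of 0.69 at 6 hpd.

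**Figure D3:**
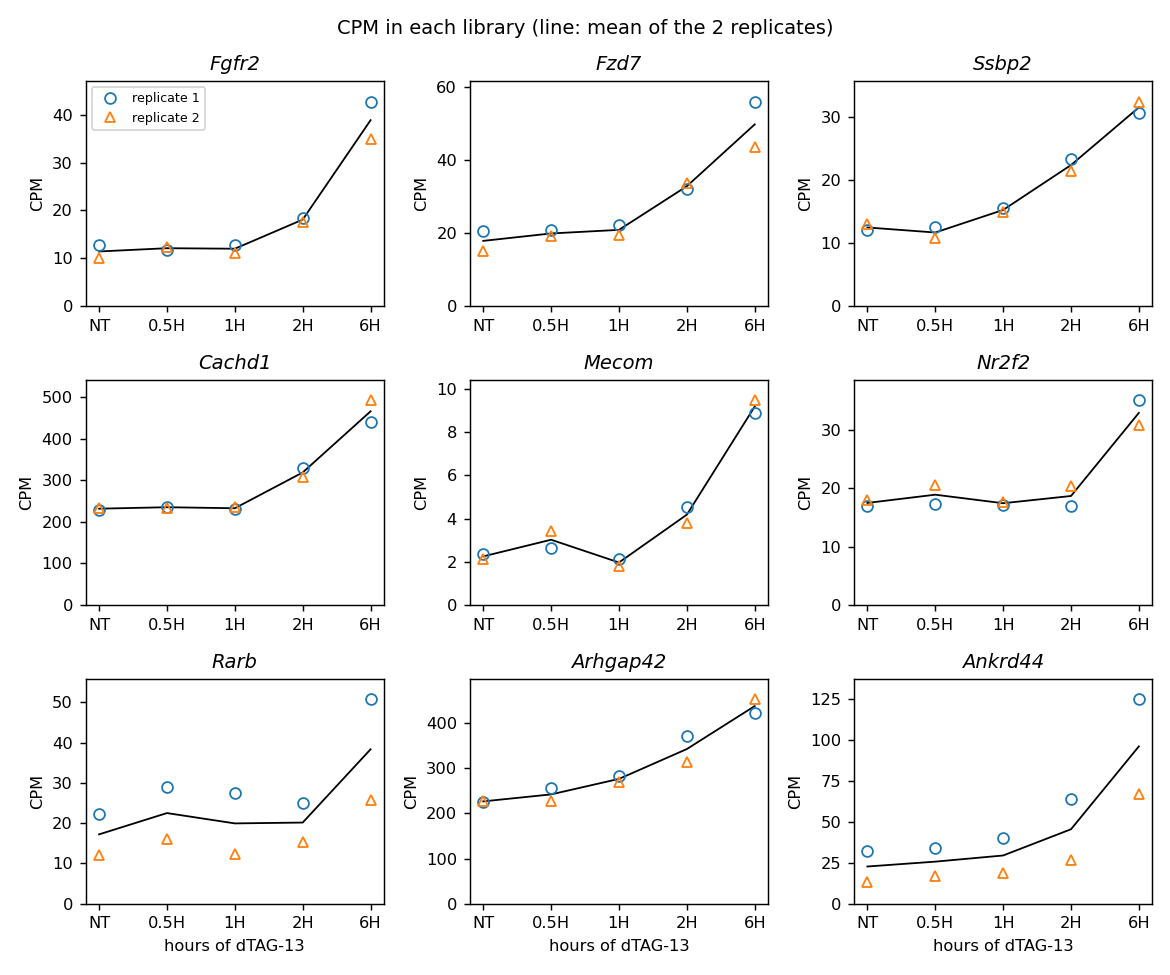
CPM of 9 late risers in each library (circles, replicate 1; triangles, replicate 2; line, mean of the 2) by time of dTAG-13 treatment, with each axis starting at 0. Fgfr2, Fzd7, Ssbp2, Cachd1, Mecom and Arhgap42 had left their earlier range by 2 hpd, Nr2f2 only at 6 hpd, and in Rarb and Ankrd44 replicate 1 stood above replicate 2 in all 5 groups.

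Promoters of late risers were read for short motifs, since genes that move together may share them. RefSeq promoters (GRCm38.p6, the assembly called mm10, 250 bases before to 50 after a gene's start) were matched to 54 of the 70 late risers, and for 38 of these a promoter lay within 1 kb of the start of the TU. The 6 shown are those of receptors, a ligand and factors described above, chosen after their values were seen. Capitals mark the SOX motif ACAATG, the TEAD motif GGAATG and the CCAAT box on either strand, and none of these overlap in the 6 sequences, each given 5′ to 3′ on the strand of its gene. Ssbp2 (chr13:91460847-91461146, plus strand) and Fzd7 (chr1:59481897-59482196, plus strand) are GC-rich, Apela (chr8:65037287-65037586, minus strand), Fgfr2 (chr7:130266759-130267058, minus strand) and Mecom (chr3:30013155-30013454, minus strand) are not, and Rarb (chr14:16575427-16575726, minus strand) lies between.
Ssbp2: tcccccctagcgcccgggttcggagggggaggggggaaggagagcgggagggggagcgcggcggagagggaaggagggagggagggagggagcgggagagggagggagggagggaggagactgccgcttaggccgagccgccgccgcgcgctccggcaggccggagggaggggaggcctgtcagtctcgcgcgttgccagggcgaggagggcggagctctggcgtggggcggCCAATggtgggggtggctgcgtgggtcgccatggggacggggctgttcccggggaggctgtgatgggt
Fzd7: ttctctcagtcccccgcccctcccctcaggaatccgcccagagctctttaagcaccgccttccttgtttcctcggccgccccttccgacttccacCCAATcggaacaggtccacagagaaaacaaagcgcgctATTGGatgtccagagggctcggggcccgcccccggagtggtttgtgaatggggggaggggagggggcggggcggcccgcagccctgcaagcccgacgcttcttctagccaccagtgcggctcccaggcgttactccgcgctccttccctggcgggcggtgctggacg
Apela: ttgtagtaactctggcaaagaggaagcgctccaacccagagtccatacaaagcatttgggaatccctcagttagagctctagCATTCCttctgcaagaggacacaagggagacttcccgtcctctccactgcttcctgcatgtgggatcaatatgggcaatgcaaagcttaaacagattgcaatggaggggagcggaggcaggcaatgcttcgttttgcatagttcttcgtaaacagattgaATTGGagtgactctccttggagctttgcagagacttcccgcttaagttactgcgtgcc
Fgfr2: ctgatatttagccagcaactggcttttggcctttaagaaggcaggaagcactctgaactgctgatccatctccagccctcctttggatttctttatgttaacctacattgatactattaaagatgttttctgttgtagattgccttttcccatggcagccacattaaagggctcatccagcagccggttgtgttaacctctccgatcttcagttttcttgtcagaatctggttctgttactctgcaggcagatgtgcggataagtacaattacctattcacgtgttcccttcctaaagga
Mecom: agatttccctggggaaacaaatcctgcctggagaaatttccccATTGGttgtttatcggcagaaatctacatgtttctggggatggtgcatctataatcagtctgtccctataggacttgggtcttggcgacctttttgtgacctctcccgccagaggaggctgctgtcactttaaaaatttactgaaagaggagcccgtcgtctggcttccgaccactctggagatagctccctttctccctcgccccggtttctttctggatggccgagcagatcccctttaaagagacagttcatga
Rarb: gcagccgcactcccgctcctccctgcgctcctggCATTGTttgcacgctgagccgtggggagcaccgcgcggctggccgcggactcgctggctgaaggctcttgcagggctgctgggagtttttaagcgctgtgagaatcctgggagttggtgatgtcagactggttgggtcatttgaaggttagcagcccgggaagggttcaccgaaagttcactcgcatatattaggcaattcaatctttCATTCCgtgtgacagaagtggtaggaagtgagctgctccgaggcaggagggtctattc

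The Fzd7 promoter held 2 CCAAT boxes and those of Ssbp2, Apela and Mecom 1 each, while the Fgfr2 promoter held none of the 3 motifs. The Apela promoter also held 1 TEAD motif, and the Rarb promoter held 1 SOX and 1 TEAD motif. Over the 38 promoters, the SOX motif was found in 2 (5.26%; 6.34% of the 5990 eligible genes matched in the same way and 12.6% of all 32851 promoters), the TEAD motif in 7 (18.4%; 11.1% and 14.7%) and the CCAAT box in 18 (47.4%; 40.1% and 37.4%). Of the other 11 motifs, those written with an N being open at that base, the AP-2 motif GCCNNNGGC was found in 12 (31.6%; 27.1% and 16.6%), the E-box CACGTG in 4 (10.5%; 11.1% and 7.15%), the TCF/LEF motif CTTTGA in 3 (7.89%; 11.5% and 16.0%), the RUNX motif TGTGGT in 2 (5.26%; 11.2% and 16.8%) and the FOX motif TGTTTAC in 2 (5.26%; 2.35% and 3.65%). The AP-1 motif TGANTCA (4.11% of eligible genes and 7.81% of all promoters), the POU motif ATGCAAAT (1.40% and 1.74%) and the TATA box TATAAA (5.86% and 13.6%) were each in 1 of the 38. The CRE TGACGTCA (4.02% and 1.79%), the GATA motif AGATAA (5.04% and 11.2%) and the KLF motif GGGTGTGG (3.91% and 3.56%) were in 0 of the 38. The median GC content was 65.5%, against 62.0% for eligible genes. These are counts of letters in a window of 300 bases and carry no test.

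Small GTPases, their regulators and actin proteins made up 15 of the late risers as grouped here. Between 0.5 and 2 hpd 6 of them rose (Farp1, Cap2, Fmn1, Arhgap42, Arfgef1 and Fam49a) and 0 fell, with a median log2 fold change of 0.50. Arhgap42, a GTPase-activating protein (chr9:8981268-9240759, minus strand, XM_006509884.3), had the highest mean count of all late risers. It gave 226 and 227 CPM untreated, 257 and 227 after 0.5 h, 284 and 269 after 1 h, 371 and 314 after 2 h and 422 and 453 after 6 h, a gradual course in which each group mean exceeded the one before (log2 fold change 0.59 ± 0.13 SE, edgeR adjusted p = 0.0285; called in 4 of the 10 fits without a library). Arfgef1, an exchange factor for ARF proteins, gave 169.6 and 171 CPM untreated, 212 and 183 after 0.5 h, 219.6 and 219 after 1 h, 289.6 and 259.9 after 2 h and 337 and 394 after 6 h, again in steps (log2 fold change 0.56 ± 0.13 SE, edgeR adjusted p = 0.0358; likewise called in 4 of the 10), and had the highest NT level per kb, 1.58 CPM.

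Farp1, an exchange factor for Rac, had 102 and 105 CPM untreated, 102 and 115 after 0.5 h, 120.2 and 135 after 1 h, 157 and 159 after 2 h and 206 and 221 after 6 h. Both 2 hpd libraries were above every earlier one (log2 fold change 0.63 ± 0.10 SE, edgeR adjusted p = 0.00406). Cap2, an actin-binding cyclase-associated protein, gave 24.5 and 28.4 CPM untreated, 23.9 and 31.3 after 0.5 h, 30.8 and 32.4 after 1 h, 38.2 and 43.2 after 2 h and 61.01 and 65.4 after 6 h and rose likewise (log2 fold change 0.66 ± 0.12 SE, edgeR adjusted p = 0.00780). Fmn1, a formin that nucleates actin filaments, gave 147 and 150.2 CPM untreated, 164 and 167 after 0.5 h, 185 and 187 after 1 h, 231 and 228 after 2 h and 278 and 322 after 6 h (log2 fold change 0.56 ± 0.11 SE, edgeR adjusted p = 0.01298). An antisense TU at its start, with a mean of 33.4 fragments, had a log2 ratio of 1.06 at 6 hpd.

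Other members of this group were not called at 2 against 0.5 hpd. Rhob, a small GTPase and the shortest TU of the set (6.46 kb), gave 4.78 and 4.52 CPM untreated, 4.45 and 4.76 after 0.5 h, 4.26 and 5.65 after 1 h, 5.52 and 8.45 after 2 h and 10.7 and 7.01 after 6 h, with log2 fold change 0.67 ± 0.23 SE, edgeR adjusted p = 0.173. Its 2 libraries at 2 hpd and at 6 hpd overlapped. Psd3, an ARF exchange factor and the longest TU (373 kb), gave 20.2 and 21.2 CPM untreated, 22.6 and 16.5 after 0.5 h, 23.2 and 18.2 after 1 h, 22.8 and 18.7 after 2 h and 40.1 and 40.3 after 6 h. Up to 2 hpd its 8 libraries lay between 16.5 and 23.2 CPM, and 2 against 0.5 hpd gave log2 fold change 0.15 ± 0.18 SE, edgeR adjusted p = 0.769. Limch1, which activates non-muscle myosin, was one of the 3 late risers with a negative value at 2 against 0.5 hpd (log2 fold change -0.11 ± 0.22 SE, edgeR adjusted p = 0.889), with 7.35 and 11.2 CPM untreated, 9.21 and 9.97 after 0.5 h, 8.27 and 11.7 after 1 h, 7.82 and 8.98 after 2 h and 14.3 and 20.5 after 6 h.

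The 3 muscle and neuronal filament genes did not pass the test at 2 against 0.5 hpd (0 called by edgeR and 0 by DESeq2, 1 at an unadjusted p under 0.05). Trim54, a ubiquitin ligase of striated muscle, gave 3.05 and 3.98 CPM untreated, 3.21 and 5.39 after 0.5 h, 4.44 and 4.29 after 1 h, 5.52 and 6.78 after 2 h and 13.4 and 11.8 after 6 h (log2 fold change 0.66 ± 0.22 SE, edgeR adjusted p = 0.149). Nefm, the medium neurofilament subunit, gave 5.83 and 6.97 CPM untreated, 6.03 and 6.199 after 0.5 h, 5.35 and 5.25 after 1 h, 7.04 and 7.14 after 2 h and 13.9 and 13.1 after 6 h, with no library up to 2 hpd above 7.14 CPM (log2 fold change 0.30 ± 0.16 SE, edgeR adjusted p = 0.453). Des, the muscle intermediate filament protein desmin, had a log2 ratio of 0.94 at 6 hpd, and its 6 hpd libraries overlapped those at 2 hpd. The gene nearest to Des, Speg, lies 8402 bases away and was itself called higher at 2 against 0.5 hpd.

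Of the 9 genes in second messenger, kinase and phosphatase pathways, 0 were called at 2 against 0.5 hpd by edgeR and 0 by DESeq2 (2 at an unadjusted p under 0.05), although 8 of the 9 values were positive. Ankrd44, a regulatory subunit of protein phosphatase 6, had the largest log2 ratio at 6 hpd of all late risers (2.07) and gave 31.9 and 13.6 CPM untreated, 34.2 and 17.2 after 0.5 h, 39.97 and 18.9 after 1 h, 64.1 and 26.8 after 2 h and 125 and 67.1 after 6 h. Replicate 1 was 1.86 to 2.39 times replicate 2 in every group. At 2 against 0.5 hpd the value was log2 fold change 0.89 ± 0.47 SE, edgeR adjusted p = 0.432. Replicate 1 went from 34.2 to 64.1 CPM in this interval and replicate 2 from 17.2 to 26.8 CPM. Without replicate 1 of 2 hpd the value was -0.00139, in a fit that set replicate 2 alone at 2 hpd against both replicates at 0.5 hpd. With a block for the replicate number, which was not taken to pair the samples, the value was 0.89 (edgeR adjusted p = 6.8e-05). Ncald, a neuronal calcium sensor, gave 5.41 and 7.74 CPM untreated, 8.35 and 8.44 after 0.5 h, 7.18 and 8.303 after 1 h, 10.95 and 10.3 after 2 h and 16.5 and 18.4 after 6 h (log2 fold change 0.42 ± 0.17 SE, edgeR adjusted p = 0.276), and Pde8b, a cyclic AMP phosphodiesterase, 2.15 and 3.37 CPM untreated, 3.33 and 3.504 after 0.5 h, 2.68 and 4.29 after 1 h, 3.22 and 6.31 after 2 h and 6.79 and 9.42 after 6 h (log2 fold change 0.53 ± 0.30 SE, edgeR adjusted p = 0.475). In Pde8b the 2 libraries at 2 hpd stood at 3.22 and 6.31 CPM. Pde5a, the cyclic GMP phosphodiesterase, reached a log2 ratio of 0.92 at 6 hpd, with log2 fold change 0.61 ± 0.29 SE, edgeR adjusted p = 0.377 at 2 against 0.5 hpd. Pld2, which makes phosphatidic acid, gave 2.84 and 1.99 CPM untreated, 2.75 and 3.23 after 0.5 h, 2.37 and 2.49 after 1 h, 2.44 and 2.08 after 2 h and 5.39 and 4.43 after 6 h and had the lowest value at 2 against 0.5 hpd (log2 fold change -0.29 ± 0.25 SE, edgeR adjusted p = 0.676).

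Proteolysis and ubiquitin genes numbered 5, of which 2 rose between 0.5 and 2 hpd, Erap1 and Trim12c. Erap1, the aminopeptidase that trims peptides for MHC class I (chr13:74639618-74694539, plus strand, NM_030711.4), gave 4.58 and 4.29 CPM untreated, 5.18 and 5.48 after 0.5 h, 4.68 and 5.42 after 1 h, 9.896 and 9.82 after 2 h and 13.4 and 10.6 after 6 h. The 2 libraries at 2 hpd were nearly equal and lay just under the lower 6 hpd library (log2 fold change 0.97 ± 0.17 SE, edgeR adjusted p = 0.00590). Trim12c, a TRIM family protein with close paralogs beside it, between which the counting could split reads, gave 16.4 and 14.1 CPM untreated, 13.04 and 14.8 after 0.5 h, 14.7 and 15.6 after 1 h, 19.4 and 21.2 after 2 h and 31.7 and 28.7 after 6 h (log2 fold change 0.63 ± 0.13 SE, edgeR adjusted p = 0.01298). App, the amyloid precursor protein, and Aph1b, a subunit of the gamma-secretase that cleaves it, were both late risers, with log2 ratios of 0.95 and 1.32 at 6 hpd, and neither passed the test at 2 hpd (adjusted p = 0.533 and 0.229, edgeR).

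Among the 7 genes of channels, metabolism, mitochondria and oxygen sensing, 4 rose by 2 hpd (Clcn5, Cachd1, Ptgr1 and Calr4) and all 7 values were positive. Clcn5, an endosomal chloride-proton exchanger, gave 13.04 and 11.95 CPM untreated, 14.04 and 9.79 after 0.5 h, 14.5 and 14.2 after 1 h, 23.6 and 19.4 after 2 h and 27.2 and 26.9 after 6 h (log2 fold change 0.90 ± 0.18 SE, edgeR adjusted p = 0.01298). Cachd1, a protein related to calcium channel subunits (chr4:100776668-101009023, plus strand, NM_198037.1), was the second most counted late riser. It gave 229 and 234 CPM untreated, 236 and 234 after 0.5 h, 229.8 and 236 after 1 h, 329 and 308 after 2 h and 439 and 492 after 6 h. Its 6 libraries up to 1 hpd lay between 229 and 236 CPM, before the step at 2 hpd (log2 fold change 0.53 ± 0.11 SE, edgeR adjusted p = 0.0215). Ptgr1, a prostaglandin reductase, gave 11.7 and 11.95 CPM untreated, 13.1 and 14.1 after 0.5 h, 14.97 and 13.8 after 1 h, 17.7 and 18.9 after 2 h and 31.7 and 29.7 after 6 h (log2 fold change 0.52 ± 0.12 SE, edgeR adjusted p = 0.0339), a call kept in only 2 of the 10 fits without a library.

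Timm21, an inner mitochondrial membrane import protein, gave 5.83 and 5.06 CPM untreated, 5.38 and 5.12 after 0.5 h, 6.14 and 6.04 after 1 h, 7.55 and 7.73 after 2 h and 12.3 and 9.196 after 6 h (log2 fold change 0.61 ± 0.18 SE, edgeR adjusted p = 0.101). Its whole TU lies inside that of Fbxo15 on the other strand, which held a mean of 9848 fragments and had a log2 ratio of -0.62 at 6 hpd, so the 2 strands went opposite ways. Egln3, an oxygen-sensing prolyl hydroxylase, gave 3.81 and 3.91 CPM untreated, 2.86 and 3.41 after 0.5 h, 2.56 and 3.95 after 1 h, 2.8997 and 4.94 after 2 h and 6.86 and 7.74 after 6 h (log2 fold change 0.40 ± 0.26 SE, edgeR adjusted p = 0.538). Its 6 hpd libraries lay above all others.

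The other 9 genes included Peg10, a paternally expressed gene of retrotransposon origin that the placenta needs, and Tanc2, a scaffold protein, both called. Tanc2 was among the 3 longest TUs (339.9 kb) and gave 64.98 and 69.2 CPM untreated, 68.2 and 69.98 after 0.5 h, 75.3 and 82.7 after 1 h, 101 and 93.9 after 2 h and 115 and 149.8 after 6 h (log2 fold change 0.58 ± 0.13 SE, edgeR adjusted p = 0.0295). Peg10 gave 7.97 and 11.4 CPM untreated, 10.7 and 9.25 after 0.5 h, 10.6 and 10.7 after 1 h, 15.1 and 17.8 after 2 h and 26.1 and 22.1 after 6 h (log2 fold change 0.78 ± 0.16 SE, edgeR adjusted p = 0.0169). Mcc, a suppressor first found in colorectal cancer, gave 58.04 and 81.3 CPM untreated, 76.2 and 89.3 after 0.5 h, 78.1 and 103 after 1 h, 105 and 132 after 2 h and 151 and 208 after 6 h and did not pass (log2 fold change 0.60 ± 0.17 SE, edgeR adjusted p = 0.0953). On the opposite strand of Mcc, Dcp2 overlapped it over 25.5 kb and had a log2 ratio of -0.56 at 6 hpd. Gramd3, a lipid-binding GRAM domain protein, had one of the larger values at 2 against 0.5 hpd without a call (log2 fold change 0.88 ± 0.26 SE, edgeR adjusted p = 0.0999). Setbp1, a SET-binding nuclear protein counted with the chromatin proteins, was the second longest TU (359 kb) and was not called at 2 against 0.5 hpd, with 26.4 and 16.7 CPM untreated, 24.4 and 16.3 after 0.5 h, 28.5 and 16.4 after 1 h, 29.7 and 16.8 after 2 h and 51.4 and 46.99 after 6 h (log2 fold change 0.27 ± 0.31 SE, edgeR adjusted p = 0.762).

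The TUs of late risers had a median length of 76.6 kb (quartiles 26.8 and 195 kb), against 35.0 kb (19.3 and 68.0 kb) for the eligible genes and 49.8 kb for the early lasting risers. These lengths moved with the count that a gene had to hold. With a mean of at least 20 fragments the 3 medians were 48.8, 32.6 and 32.6 kb, the first near the 49.8 kb above, and with at least 100 they were 101, 37.3 and 56.3 kb. Of the 70, 34 fell in the longest of 5 equal length classes of eligible genes (over 80.2 kb), and 9, 11, 5 and 11 in the 4 shorter classes. Of the 84 early lasting risers, 22 were in the longest class. Late risers made up 1.73% of the longest class and 0.255% to 0.562% of the others. At 2 against 0.5 hpd their median log2 fold change was 0.61, 0.53, 0.50, 0.34 and 0.53 from the shortest to the longest class, with no test of a trend. Over all eligible genes this median was -0.04 in the shortest class and 0.18 in the longest. Of the 21 late risers called higher, 13 were in the longest class, which also held 84 of the 156 eligible genes called higher. Long TUs also collect more fragments: the median late riser held 128.5 fragments per library in the shortest class and 487 in the longest, and the part of count depth in these shares was not tested.

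**Figure D4:**
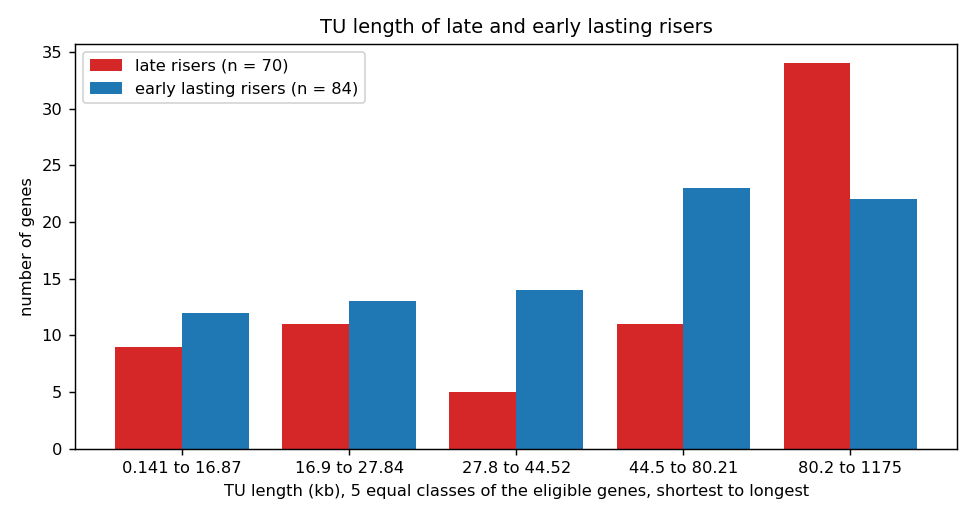
Number of late risers (red, 70 in all) and early lasting risers (blue, 84 in all) in 5 equal classes of the 9806 eligible genes by TU length in kb. The longest class holds 34 late and 22 early lasting risers.

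The surroundings of late risers were read for shared changes. Within 100 kb, 30 of the 70 had an extragenic TU with a mean of at least 20 fragments (38.0% of eligible genes), and 1 of the 70, Scmh1, had one called higher at 2 against 0.5 hpd (0.245% of eligible genes). The nearest other gene was called higher for 2 of the 70, Speg beside Des and Slc39a14 beside Ppp3cc (1.19% of eligible genes), and lower for 1, Ncam1 beside Ttc12 (1.91% of eligible genes). Another TU on the same strand overlapped that of 2 late risers, and the counting could split fragments between them. These were the predicted genes Gm41016, inside Ssbp2 over 17.4 kb (a mean of 29.1 fragments and a log2 ratio of 1.73 at 6 hpd), and Gm34090 over 131 kb of Antxr1 (379.5 fragments, 1.12), and neither was called at 2 against 0.5 hpd. A TU on the opposite strand overlapped 25 late risers (35.7%) and 31 of the 84 early lasting risers (36.9%), against 61.7% of eligible genes. The log2 ratio of these opposite TUs at 6 hpd ran from -0.75 to 1.06. The TU of 43 of the 70 began within 1 kb of the start of the transcript it was assigned to, that of 11 over 5 kb upstream and that of 3 over 5 kb downstream. In Mcc the TU began 106 kb upstream of that start, in Crim1 79.9 kb and in Ankrd44 61.3 kb.

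Of 30 gene lists, 12 held a late riser and 17 of the 70 late risers were in a list. Late risers were 0.714% of eligible genes. The lists with most of them were the regulators of small GTPases, with 3 of 79 eligible members (Arhgap42, Arhgap18 and Dock10), actin and myosin genes with 2 of 60 (Fmn1 and Limch1), intermediate filaments with 2 of 9 (Des and Nefm), cyclic nucleotide and calcium signalling enzymes with 2 of 69 (Pde5a and Pde8b) and the bHLH, Ets, AP-2, Runx, Tead and nuclear receptor factors with 2 of 65 (Nr2f2 and Rarb). One each was among the trophectoderm markers (Fgfr2), receptor tyrosine kinases and their ligands (Fgfr2), targets of YAP and TEAD (Crim1), Wnt ligands and receptors (Fzd7), axon guidance genes (Efnb2) and ion channel subunits (Clcn5).

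Calls in these lists between 0.5 and 2 hpd are to be read beside 0.759% higher and 1.75% lower of all tested TUs, and 1.59% and 2.03% of eligible genes. Of 22 tested Wnt ligands and receptors, Fzd7 and Wnt7b were called higher and Fzd5, Wnt5b and Wnt3a lower. Of 44 receptor tyrosine kinases and ligands, 2 were higher (Fgfr2 and Igf1r) and 5 lower, Fgf4 among them. Of 88 GTPase regulators 3 were higher and 3 lower, of 70 actin and myosin genes 4 and 2, of 103 ion channel subunits 6 and 5 and of 76 factors of the bHLH to nuclear receptor list 2 and 4. The 77 cyclic nucleotide and calcium enzymes had 3 higher and 1 lower, the 18 YAP and TEAD targets 2 and 2, the 39 axon guidance genes 0 and 3, and the 13 intermediate filaments 0 and 2.

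Markers of other cell types were read beside these genes, since fewer cells of a type and less RNA per cell cannot be told apart in bulk samples. Of 11 tested trophectoderm markers, 1 was called higher (Fgfr2) and 1 lower (Krt8) at 2 against 0.5 hpd. Their summed level was 288 to 314 CPM in NT, 339 to 371 CPM at 0.5 hpd, 366 to 371 CPM at 1 hpd, 302 to 317 CPM at 2 hpd and 309 to 325 CPM at 6 hpd. It was highest at 0.5 and 1 hpd, and 5 of 19 listed, Elf5, Krt7, Hand1, Plac1 and Dlx3, had no TU of their own. Primitive endoderm markers summed to 187 to 191 CPM in NT, 202 to 217 CPM at 0.5 hpd, 201 to 211 CPM at 1 hpd, 210 to 239 CPM at 2 hpd and 245 to 257 CPM at 6 hpd, with 1 of 11 called higher (Dab2) and 0 lower. Neural ectoderm markers summed to 193 to 205 CPM in NT, 157 to 169 CPM at 0.5 hpd, 126 to 128 CPM at 1 hpd, 67.9 to 68.3 CPM at 2 hpd and 55.1 to 56.9 CPM at 6 hpd, with 4 of 8 called lower. Of the other 5 cell type lists, germ cell markers summed to 1115 to 1137 CPM in NT and 813 to 840 CPM at 6 hpd and primed epiblast markers to 800 to 871 and 700 to 760 CPM, while fibroblast and mesenchymal markers stood at 146 to 159 CPM in NT and 162 to 172 CPM at 6 hpd. Primitive streak and mesoderm markers (52.3 to 56.4 and 46.1 to 60.5 CPM) and 2-cell-like markers (1.25 to 4.67 and 1.82 to 3.59 CPM) overlapped. In these 5 lists Zic2 and Vim were called lower at 2 against 0.5 hpd and no gene higher. The part of such cells in the late risers was not tested.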

How the data were processed

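TT_chem-seq libraries of 5 groups with 2 replicates each were analysed. The authors deposited unnormalized counts of fragments in each TU. Per the study's methods, the authors aligned reads to mm10, removed duplicates, split alignments by strand, defined TUs on the pooled data and associated them with RefSeq genes; the submitters' processing notes name BWA 0.7.17-r1188, SAMtools 1.10 and Picard 2.12.0. Every column was matched to a library through its label. Members and gene lists were chosen with earlier results of these data known.

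CPM used each library's total, with 0.1 CPM added before log2 ratios. The fit took TUs in which 2 or more libraries held over 10 fragments and was made over all 10 libraries in edgeR 4.0.16 (R 4.3.3), with TMM factors, 1 coefficient per group and no covariates, and 2 hpd was tested against 0.5 hpd with the quasi-likelihood F-test, Benjamini-Hochberg adjusted over all 28459 tested TUs. The biological coefficient of variation was 10%. An SE is the size of the log2 fold change over the square root of F. The script was tested on simulated data. Replicates of a group differed beyond counting error (chi-square per degree of freedom 2.69 to 9.03), so no library was taken for a copy of another.

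Named were the 12 late risers with the largest ratio at 6 hpd, the 8 with the smallest p among those higher and the 3 among those lower at 2 against 0.5 hpd, the 3 most counted, the 3 longest and 3 shortest, those nearest each threshold on both sides, and the most counted late riser of each list; 1 gene that the rule names is not reported here. Deposited starts are given as in the files; of 14891 symbols found in RefSeq, 7265 had a transcript start 1 base below the reference start, so starts may be 1 low in a count from 1. Alternatives were DESeq2 1.42.0, other scaling factors and count filters, a fit of only those libraries under comparison, a replicate block, other settings of the rule, and leaving out each library. Promoters came from RefSeq (GRCm38.p6).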

Additional observations from a re-analysis of the deposited data

How the results depend on the processing

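The number of all TUs called at 2 against 0.5 hpd was 715 (30.2% of them higher), and 21 late risers were called, all higher. DESeq2, RLE factors, total counts, no count filter and a mean of at least 50 counts gave 666 to 788 TUs (20.8% higher with total counts, 39.2% with DESeq2) and 16 to 22 late risers. With only the libraries compared, 341 TUs (17.9% higher) and 4 late risers were called. Leaving out each library gave 265 to 1004 TUs (20.4% to 50.5% higher) and 4 to 19 late risers. The number of higher TUs, 216, was 507 of 1004 without replicate 2 of 2 hpd, 65 to 75 without one of the other libraries compared and 141 or 142 without a 1 hpd library. The libraries that moved the count of all calls or of late risers by over 1.5 times were replicate 1 of 0.5 hpd (368 TUs and 8 late risers without it), replicate 2 of 0.5 hpd (339 and 4) and replicate 1 of 2 hpd (265 and 4); the cause was not tested.

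The median log2 fold change of the late risers, 0.53, was 0.56 with DESeq2, 0.55 with RLE factors, 0.44 with total counts only, 0.49 when a mean of 50 counts was required, and 0.39 to 0.55 without single libraries. Over the 10 fits without a library 59 of the 70 values were positive in all, 2 (Pld2 and Limch1) negative in all and 9 of both signs, none of which was called. Of these 9, Rarb ran from -0.60 to 0.48, Psd3 from -0.092 to 0.47, Setbp1 from -0.31 to 0.67, Ankrd44 from -0.00139 to 1.57, Sstr5 from -0.28 to 0.31, Stk39 from -0.23 to 0.21, Fbln5 from -0.0886 to 0.51, Dock10 from -0.0919 to 0.37 and Nr2f2 from -0.0222 to 0.14.

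With a block for the replicate number, 2122 TUs and 36 late risers were called at 2 against 0.5 hpd, the late risers all higher and the 21 among them. Deviations of libraries with the same number correlated at 0.0742 to 0.291 between pairs of groups, so that not every pair was above 0.1 and the numbers were not taken to pair the samples. Replicate 1 stood above replicate 2 in all 5 groups in 9 late risers and below it in all 5 in 13. Ankrd44 was among the 9, and its value with the block was 0.89 (edgeR adjusted p = 6.8e-05). Mcc, Efnb2, Trim54 and Crim1, not called in the main fit, were called with the block (edgeR adjusted p = 0.000856, 0.0172, 0.0348 and 0.0384). Mecom and Nefm were not (edgeR adjusted p = 0.0802 and 0.259).

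The rule chose 56 to 90 genes under other count minimums, 1 CPM added, TMM factors or 1 replicate alone, and 66 to 76 without single libraries, sharing 50 to 70 with the 70. Their median length, 76.6 kb, was 51.6 kb when chosen on replicate 1, 96.9 kb on replicate 2, 56.3 to 89.5 kb without single libraries and 70.1 kb by annotated transcripts. With a mean of at least 20 or 100 counts, settings chosen for length after seeing the data, it was 48.8 and 101 kb, so that the length of late risers depends on the count filter. Low counts limit the least counted members, such as Pld2 and Thsd1, with means of 50.1 and 51.6 fragments.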
